A study of Caenorhabditis elegans with 5 samples.

Results

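Fatty acid desaturases and elongases are the enzymes that put double bonds into fatty acids and lengthen their chains. The 10 genes described here, fat-1, fat-2, fat-3, fat-4, fat-5, fat-6, fat-7, elo-1, elo-2 and elo-5, were taken by symbol from count tables of 45251 genes, and all 10 had a row. All 10 also passed the filter on low counts that left 14238 tested genes. They were not chosen by their values, but earlier results of these data were known when the family was picked.

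C. elegans makes its polyunsaturated fatty acids itself, in a chain of steps that runs largely in the intestine. The Δ9 desaturases FAT-5, FAT-6 and FAT-7 place the initial double bond in a saturated fatty acid: FAT-5 acts on palmitic acid, FAT-6 and FAT-7 on stearic acid. FAT-2 turns the product oleic acid into linoleic acid, FAT-3 and FAT-4 add further double bonds on either side of an elongation step by ELO-1, and FAT-1 converts omega-6 into omega-3 fatty acids. ELO-2 lengthens palmitic acid, and ELO-5 builds branched-chain fatty acids.

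Whole worms of the wild-type strain N2, the standard laboratory isolate, were collected between the L4 larval stage and adulthood. The BPTMC group (3 libraries) had been exposed for 24 h on agar plates with bisphenol TMC, a bisphenol, and the DMSO group (2 libraries) for 24 h on plates with dimethyl sulfoxide, the control plates of the study. The stated final concentration was 1 mM for both kinds of plate, and both groups fed on E. coli OP50 at 20 °C. The deposited values were raw counts of 3' tag reads per gene. In whole animals, fewer cells of a type and less RNA per cell cannot be told apart, and the labels do not say whether libraries of a group came from separate cultures. The p-values therefore measure only how far these libraries differ, which may be technical variation.

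Libraries held 16531114 to 23579588 counts in the BPTMC group and 19819975 and 24362712 counts in the DMSO group, of which the 10 genes took 32472 to 90290 and 27731 to 34577 reads. Ribosomal RNA genes took 13.6% to 24.7% of the counts in BPTMC libraries and 11.2% to 17.7% in DMSO libraries. BPTMC replicate 1 stood farthest out on the first principal component (-97.6, with BPTMC replicates 2 and 3 at 19.6 and -14.1 and the DMSO libraries at 14.3 and 77.7), and values of the 10 genes that rest on it are given with and without it. Markers of the intestine, where much of the pathway is active, were present in every library: none of 8 was at 0, and their summed level was 447 to 584 CPM (reads scaled to library size, with the TMM correction for library composition) in BPTMC worms and 375 to 465 CPM in DMSO worms.

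None of the 10 genes passed the test between BPTMC and DMSO worms (edgeR quasi-likelihood test, Benjamini-Hochberg adjustment over 14238 genes, adjusted p under 0.05), where the share of all tested genes called was 0.105% in the higher direction and 0% in the lower. With no adjustment, p was under 0.05 for fat-2 and fat-4, both higher in BPTMC worms, and for no member that was lower, against 7% and 0.4% of all genes in these directions. fat-2 and fat-4 were also the members whose BPTMC libraries all lay above both DMSO libraries, a separation seen in 13.4% of all genes, and none of the 10 was separated in the lower direction, as 9.96% of genes were. The median log2 fold change of the 10 genes was 0.34, with 7 positive and 3 negative, beside a median of -0.09 over all genes. DESeq2 called 0 of the 10, beside 1.67% of all genes higher and 0.0211% lower. With no adjustment, its p was under 0.05 for 2 of the 10, fat-2 and fat-4, both higher, beside 7.87% of all genes higher and 0.541% lower. limma-voom called 0 of the 10, beside 0.00702% higher and 0% lower, and had 0 at an unadjusted p under 0.05, beside 3.95% higher and 0.471% lower.

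**Figure D1:**
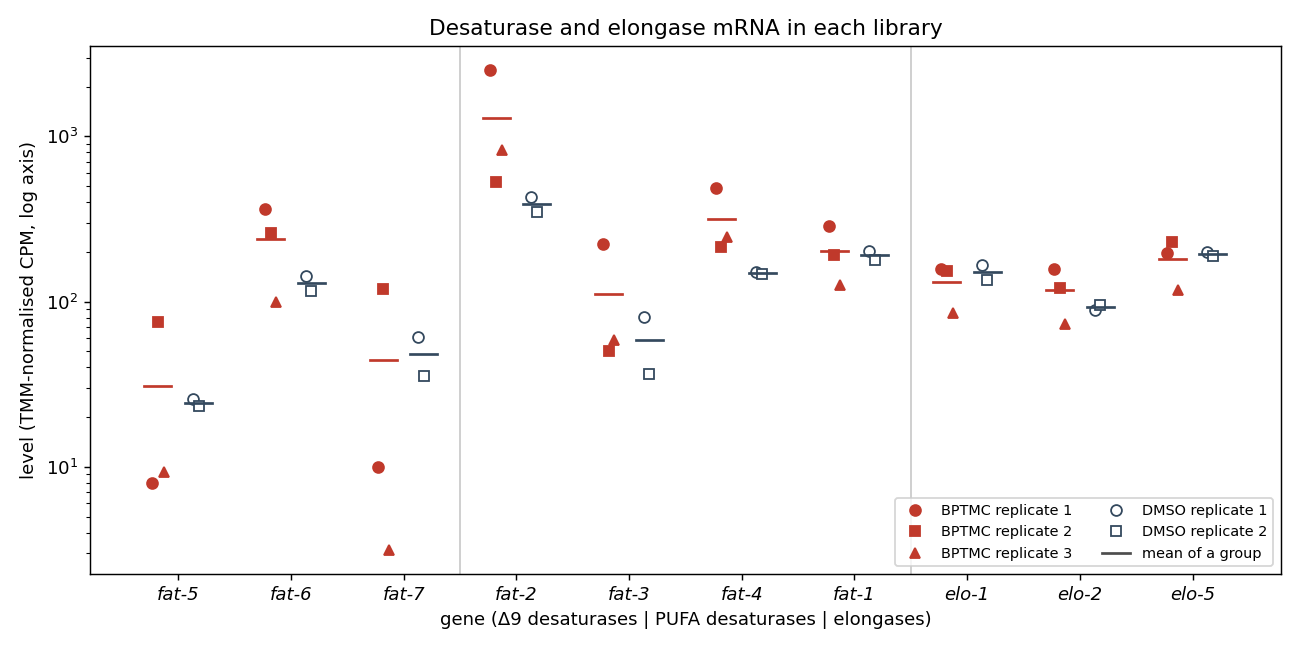
Level of each gene in each library, as TMM-normalised CPM on a log axis. Filled red points are BPTMC libraries, open points DMSO libraries, symbols mark the replicate and short lines the group means. fat-2 and fat-4 have all 3 BPTMC libraries above both DMSO libraries, while fat-5 and fat-7 have 1 BPTMC library above and 2 below. Heights of different genes are not compared.

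The Δ9 desaturases fat-5 and fat-7 differed more among the BPTMC libraries than between the groups. fat-7 (WBGene00001399, chromosome V, 7151353 to 7153146, minus strand, WBcel235) had 9.97, 119 and 3.15 CPM in BPTMC replicates 1, 2 and 3, against 60.8 and 35.7 CPM in DMSO replicates 1 and 2. BPTMC replicate 2 was thus above both DMSO libraries, and BPTMC replicates 1 and 3 were below both. The low values rested on 204 and 62 reads, and their exact (Clopper-Pearson) 95% counting intervals of 8.65 to 11.4 CPM and 2.42 to 4.04 CPM stayed clear of those of BPTMC replicate 2 (114 to 124 CPM) and of the DMSO libraries (57.6 to 64.1 and 33.2 to 38.3 CPM). Such intervals cover counting error only. The group means were 44.0 ± 64.9 CPM in BPTMC worms (SD, n = 3) and 48.2 ± 17.8 CPM in DMSO worms (SD, n = 2). The log2 fold change was -0.13 ± 1.17 (SE), with an edgeR adjusted p = 0.968. Its sign and size depended on single libraries: it was -2.77 ± 0.73 without BPTMC replicate 2 (edgeR adjusted p = 0.225) and 0.37, 0.42, 0.30 and -0.45 without BPTMC replicate 1, BPTMC replicate 3, DMSO replicate 1 or DMSO replicate 2.

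fat-5, the palmitic acid desaturase (WBGene00001397, chromosome V, 17725004 to 17726818, plus strand), had the same arrangement of libraries. Its level was 8.02, 75.6 and 9.36 CPM in BPTMC replicates 1, 2 and 3, against 25.7 and 23.2 CPM in the DMSO libraries. Again BPTMC replicate 2 stood above both DMSO libraries and the other two below, on 164 to 1481 reads per BPTMC library. The log2 fold change was 0.34 ± 0.90 (edgeR adjusted p = 0.888), and it was -1.45 ± 0.46 without BPTMC replicate 2 (edgeR adjusted p = 0.294), 0.86 without BPTMC replicate 1 and 0.78 without BPTMC replicate 3. fat-5 overlaps twk-42 on the opposite strand, which had 44, 129 and 19 reads in BPTMC replicates 1, 2 and 3, against 46 in each DMSO library. BPTMC replicate 2 was thus the highest for both genes, and any sharing of reads between them was not tested.

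fat-6, the other stearic acid desaturase (WBGene00001398, chromosome IV, 11913692 to 11915687, minus strand), did not follow fat-7. It stood at 364, 259 and 99.1 CPM in BPTMC replicates 1, 2 and 3, against 144 and 115 CPM in DMSO worms. BPTMC replicates 1 and 2 were above both DMSO libraries and BPTMC replicate 3 was below both, so the groups overlapped. The means were 241 ± 134 CPM in BPTMC worms (SD, n = 3) and 130 ± 20.0 CPM in DMSO worms (SD, n = 2), with a log2 fold change of 0.89 ± 0.54 and an edgeR adjusted p = 0.795. The value was 1.37 ± 0.41 without BPTMC replicate 3 (edgeR adjusted p = 0.810) and 0.52 without BPTMC replicate 1.

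The balance between the 2 stearic acid desaturases therefore varied among BPTMC libraries. The log2 ratio of fat-7 to fat-6 was -5.19, -1.12 and -4.98 in BPTMC replicates 1, 2 and 3, against -1.24 and -1.69 in DMSO replicates 1 and 2. BPTMC replicate 2 lay at the DMSO level or just above it and the others more than 3 log2 units below. Of BPTMC replicates 1 and 2, fat-6 was higher in replicate 1 and fat-7 in replicate 2. The 2 genes are close copies, and how reads that match both were counted is not given in the sources used here. With 3 libraries against 2, an exact two-sided rank test of a single value cannot go below p = 0.2, so no such ratio was tested.

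**Figure D2:**
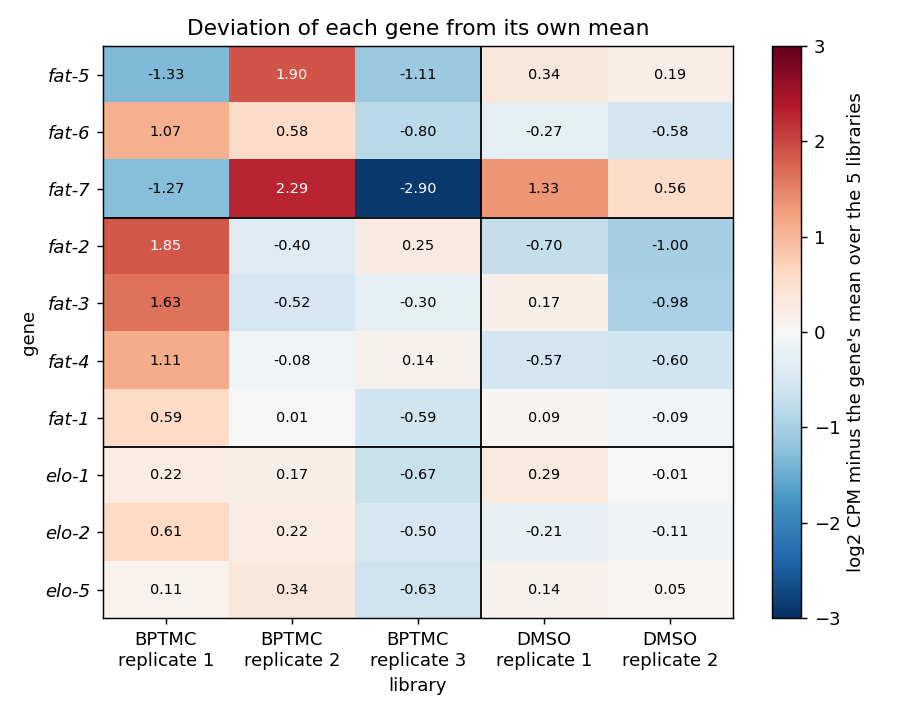
Each cell is the log2 CPM of a gene (rows, grouped as Δ9 desaturases, polyunsaturated fatty acid desaturases and elongases) in a library (columns) minus that gene's mean over the 5 libraries; red is above and blue below the mean. In BPTMC replicate 2, fat-5 and fat-7 stand at 1.90 and 2.29, in BPTMC replicate 3 fat-7 stands at -2.90, and in BPTMC replicate 1 fat-2 and fat-3 stand at 1.85 and 1.63.

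Set beside other genes, the spread of fat-7 among the BPTMC libraries was wide. From the lowest to the highest BPTMC library it spanned 5.03 units of log2(CPM + 0.5), where the median of 6999 genes with a mean of at least 10 CPM was 0.94. Of these 6999 genes, 1 had a wider span, T26H5.9 (5.12). fat-5 spanned 3.16 (53 genes were wider), fat-2 2.25 (421), fat-3 2.13 (520) and fat-6 1.87 (856). The spans of fat-1, fat-4 and elo-2 were 1.18, 1.19 and 1.10, and those of elo-1 and elo-5, at 0.89 and 0.96, were close to the median. Between the 2 DMSO libraries, the higher exceeded the lower by 1.70 times for fat-7 and 1.11 times for fat-5, against 37.7 and 9.43 times between the highest and lowest BPTMC libraries. A range over 3 libraries tends to be wider than a range over 2, and the spread of all genes was taken for BPTMC libraries only.

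**Figure D3:**
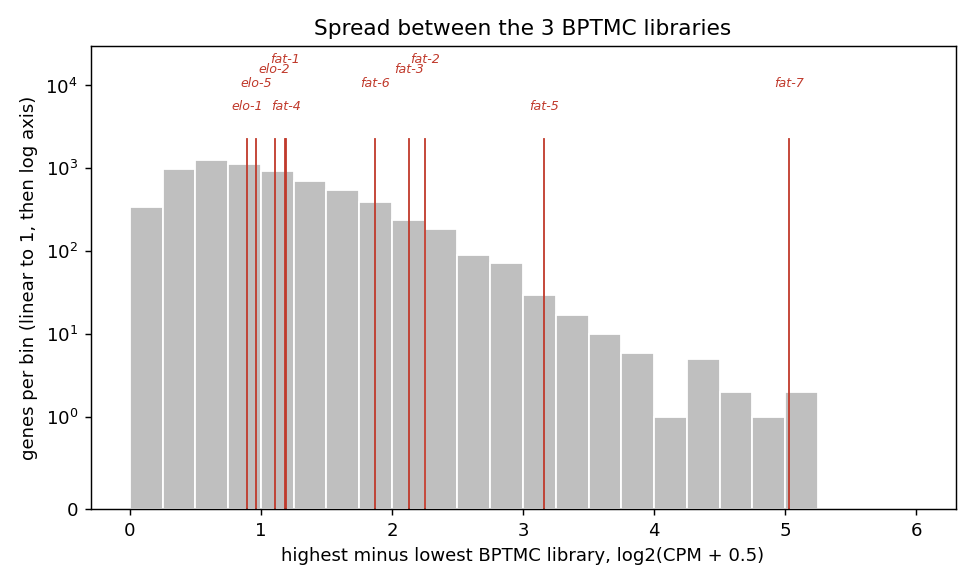
Grey bars count genes with a mean of at least 10 CPM by the difference between their highest and lowest BPTMC library in log2(CPM + 0.5), in bins of 0.25; the count axis is linear to 1 and logarithmic above. Red lines mark the 10 desaturase and elongase genes, with fat-7 at 5.03 and fat-5 at 3.16 far to the right of the median of 0.94.

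Among the desaturases that make polyunsaturated fatty acids, fat-2 had the smallest p of the 10 genes. fat-2 (WBGene00001394, chromosome IV, 13323873 to 13326395, plus strand) stood at 2524, 531 and 832 CPM in BPTMC replicates 1, 2 and 3, against 429 and 348 CPM in DMSO worms. Every BPTMC library exceeded both DMSO libraries, BPTMC replicate 2 by little and BPTMC replicate 1 by far. The means were 1296 ± 1075 CPM in BPTMC worms (SD, n = 3) and 389 ± 56.6 CPM in DMSO worms (SD, n = 2). The log2 fold change was 1.74 ± 0.66 (edgeR unadjusted p = 0.0285, adjusted p = 0.616). Without BPTMC replicate 1 it was 0.88 ± 0.43 (edgeR unadjusted p = 0.0688), without DMSO replicate 2 it was 1.67 ± 0.88 (edgeR unadjusted p = 0.0763), and without BPTMC replicate 2 or 3 it was 2.21 and 2.13.

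fat-4, which acts after the elongation by ELO-1 (WBGene00001396, chromosome IV, 9799429 to 9802226, plus strand), stood at 486, 213 and 247 CPM in BPTMC replicates 1, 2 and 3, against 151 and 148 CPM in DMSO worms. Here too the groups did not overlap, and the DMSO libraries lay within 1.02 times of each other. The log2 fold change was 1.08 ± 0.45 (edgeR unadjusted p = 0.0419, adjusted p = 0.648), from means of 316 ± 149 CPM in BPTMC worms (SD, n = 3) and 149 ± 2.44 CPM in DMSO worms (SD, n = 2). Without BPTMC replicate 1 it was 0.70 ± 0.35 (edgeR unadjusted p = 0.0794), and without DMSO replicate 1 or 2 it was 1.08 and 1.12 (edgeR unadjusted p = 0.133 and 0.134).

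fat-3 lies 796 bases downstream of fat-4 on the same strand (WBGene00001395, chromosome IV, 9803023 to 9806119) and acts before that elongation. It stood at 223, 50.3 and 58.3 CPM in BPTMC replicates 1, 2 and 3, against 81.1 and 36.4 CPM in DMSO replicates 1 and 2. The groups overlapped, with BPTMC replicate 1 the only library above DMSO replicate 1. The log2 fold change of 0.91 ± 0.70 (edgeR adjusted p = 0.834) became -0.078 ± 0.46 without BPTMC replicate 1 and 1.58 without DMSO replicate 1. The log2 ratio of fat-4 to fat-3 was 1.13, 2.08 and 2.09 in BPTMC replicates 1, 2 and 3, against 0.90 and 2.02 in DMSO replicates 1 and 2, so it differed within each group as much as between them.

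fat-1, the omega-3 desaturase (WBGene00001393, chromosome IV, 13315644 to 13318811, plus strand), is the neighbour of fat-2, 5061 bases upstream. Its level was 288, 192 and 127 CPM in BPTMC replicates 1, 2 and 3, against 203 and 179 CPM in DMSO worms, with BPTMC libraries on both sides of the DMSO libraries. The means were 202 ± 81.0 CPM in BPTMC worms (SD, n = 3) and 191 ± 16.7 CPM in DMSO worms (SD, n = 2), with a log2 fold change of 0.08 ± 0.42 (edgeR adjusted p = 0.942) that was -0.20 without BPTMC replicate 1 and 0.44 without BPTMC replicate 3. Against this neighbour, fat-2 was higher in every BPTMC library: the log2 ratio of fat-2 to fat-1 was 3.13, 1.47 and 2.72 in BPTMC replicates 1, 2 and 3, against 1.08 and 0.96 in DMSO worms. The difference was not tested, for the reason given for the ratio of fat-7 to fat-6.

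For each of the 3 elongases the log2 fold change was smaller than its SE. elo-2 (WBGene00001240, chromosome IV, 17466062 to 17467408, minus strand) had 158, 120 and 73.1 CPM in BPTMC replicates 1, 2 and 3, against 89.3 and 95.6 CPM in DMSO worms, a log2 fold change of 0.34 ± 0.41 (edgeR adjusted p = 0.834). BPTMC replicates 1 and 2 lay above the DMSO libraries and BPTMC replicate 3 below them. Without BPTMC replicate 3 it was 0.69, and without BPTMC replicate 1 it was 0.14.

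elo-1, which elongates the product of FAT-3 (WBGene00001239, chromosome IV, 9526366 to 9528336, plus strand), stood at 158, 152 and 84.8 CPM in BPTMC replicates 1, 2 and 3, against 166 and 134 CPM in DMSO worms. elo-5 (WBGene00001243, chromosome IV, 5374616 to 5377117, minus strand) stood at 196, 229 and 117 CPM, against 199 and 188 CPM in DMSO worms. For both genes BPTMC replicate 3 was the low library and the other BPTMC libraries were near the DMSO level. The log2 fold changes were -0.19 ± 0.40 for elo-1 and -0.10 ± 0.39 for elo-5 (edgeR adjusted p = 0.866 and 0.921), and both turned positive without BPTMC replicate 3, at 0.14 and 0.21. elo-5 overlaps F41H10.3 on the opposite strand, which had 2585 to 4256 reads in BPTMC libraries and 4301 and 4612 in DMSO libraries, where elo-5 had 2310 to 4487 and 3991 and 4454. Since the strand setting of the counting is not given in the sources used here, how far these 2 genes share reads cannot be told.

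**Figure D4:**
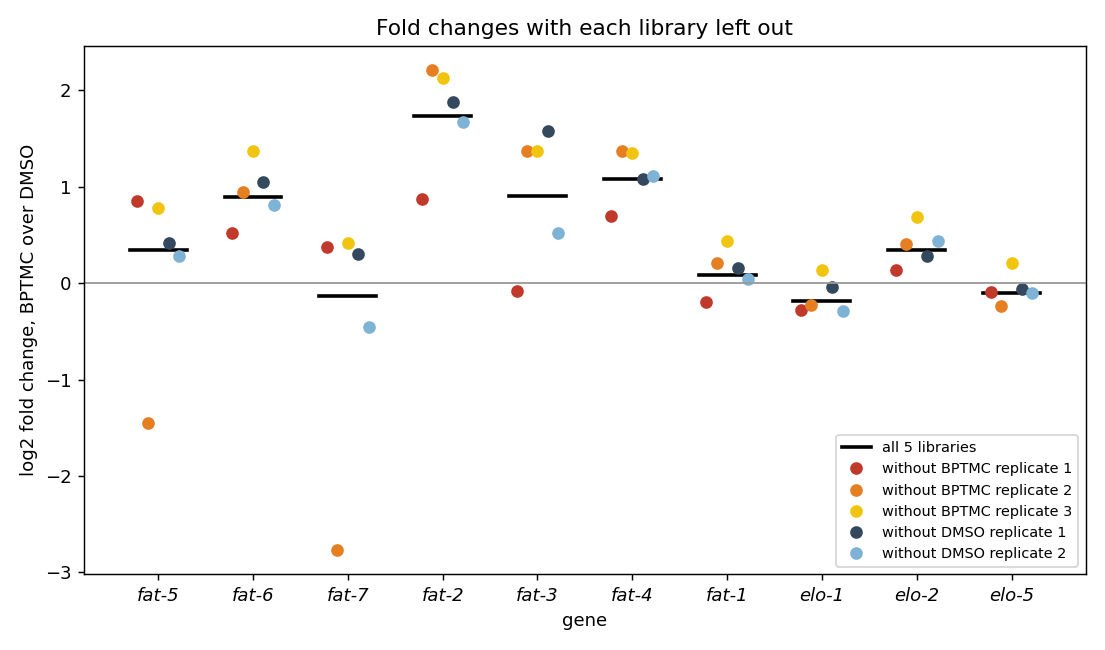
Log2 fold change (BPTMC over DMSO) of each gene with all 5 libraries (black lines) and with each library left out in turn (coloured points). fat-5 and fat-7 stand at -1.45 and -2.77 without BPTMC replicate 2, fat-2 stays between 0.88 and 2.21 and fat-4 between 0.70 and 1.38, and fat-3 reaches -0.078 without BPTMC replicate 1.

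Read by library, 6 of the 10 genes had their highest level in BPTMC replicate 1 and 6 had their lowest in BPTMC replicate 3. BPTMC replicate 1 held the highest fat-1, fat-2, fat-3, fat-4, fat-6 and elo-2, and BPTMC replicate 2 the highest fat-5, fat-7 and elo-5. Summed over the 10 genes the level was 4414, 1941 and 1651 CPM in BPTMC replicates 1, 2 and 3, against 1548 and 1303 CPM in DMSO replicates 1 and 2. This order rested on fat-2, since the other 9 genes summed to 1890, 1410 and 819 CPM in BPTMC replicates 1, 2 and 3, against 1120 and 955 CPM in DMSO worms, and the groups overlapped.

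Markers of other tissues also varied by library, and their part in these levels was not tested. The 7 oocyte and germline markers summed to 465, 2350 and 3136 CPM in BPTMC replicates 1, 2 and 3, against 1475 and 4061 CPM in DMSO replicates 1 and 2, so BPTMC replicate 1, with the highest fat-2, had the least. All 7 had negative log2 fold changes and 0 were called. The 2 of them with the smallest p, glh-1 and pgl-1, were at log2 fold changes of -0.74 and -0.61, and at -0.24 and -0.11 without BPTMC replicate 1. The 8 sperm markers all had positive log2 fold changes and 0 were called. They summed to 105, 12.1 and 72.0 CPM in BPTMC replicates 1, 2 and 3, against 23.8 and 11.9 CPM in DMSO worms. BPTMC replicate 2, where fat-5 and fat-7 were high, was thus the BPTMC library with the fewest sperm transcripts. Most of these markers belong to the msp family, and sharing of reads among them was not tested. msp-10 and msp-19, at log2 fold changes of 1.91 each, had edgeR unadjusted p = 0.0438 and 0.0409, beside 7% of all genes higher at p under 0.05. Without BPTMC replicate 1 they were at 1.27 and 1.63 (edgeR unadjusted p = 0.123 and 0.0697). The 7 hypodermis markers summed to 414 to 826 CPM in BPTMC worms and 637 to 714 CPM in DMSO worms, and 0 were called, with 5 positive and 2 negative log2 fold changes. dpy-13 and rol-6, with the smallest p, were at 1.87 and 2.85, but on few reads. dpy-13 had 86, 8 and 43 reads in BPTMC replicates 1, 2 and 3, against 17 and 10 in DMSO worms. rol-6 had 50, 12 and 0, against 6 and 0. Without BPTMC replicate 1, dpy-13 was at 1.13 and rol-6 was too low to be tested. The negative log2 fold changes were those of col-19, the most abundant of the 7, at -0.25, and lin-26, at -0.37. For lin-26, all BPTMC libraries lay below both DMSO libraries, as for 9.96% of all genes. rol-6 had 0 reads in BPTMC replicate 3 and DMSO replicate 2, and bli-1 in BPTMC replicate 2. The 8 intestine markers all had positive log2 fold changes (0.07 to 1.48), 0 were called, and elt-2 and elt-7, intestinal transcription factors, were at 1.12 and 1.48 with unadjusted p = 0.0495 and 0.0430 by edgeR, and at 0.87 and 0.85 without BPTMC replicate 1 (edgeR unadjusted p = 0.124 and 0.152). For 5 of the 8, among them elt-2 and elt-7, all BPTMC libraries lay above both DMSO libraries, as for 13.4% of all genes. At an edgeR unadjusted p under 0.05, 7% of all genes were higher. Of the 6 yolk genes, which the adult intestine expresses, 0 were called, and 3 had positive and 3 negative log2 fold changes. Sharing of reads among the yolk genes was not tested. vit-1 and vit-3 were at -2.10 and -1.49 with edgeR unadjusted p = 0.00933 and 0.0217, beside 0.4% of all genes lower at p under 0.05. For both, every BPTMC library lay below both DMSO libraries, as for 9.96% of all genes. Without BPTMC replicate 1 they were at -1.98 and -1.38 (edgeR unadjusted p = 0.0209 and 0.0523). vit-2 was at a log2 fold change of 0.96, and at 0.58 without BPTMC replicate 1. It had 9863, 3937 and 5328 CPM in BPTMC replicates 1, 2 and 3, against 3075 and 3477 CPM in DMSO worms. All BPTMC libraries thus lay above both DMSO libraries, as for 13.4% of all genes. DESeq2 and limma-voom also called 0 genes of each of these marker lists. With no adjustment, DESeq2 had 6 of the 8 sperm markers at p under 0.05, beside 7.87% of all genes higher. limma-voom had 0 of these 8.

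Elongases outside the 10 genes did not pass the test either, by edgeR, DESeq2 or limma-voom, and 0 had an unadjusted p under 0.05. Of 6, elo-7 was too low to be tested (3 to 20 reads in BPTMC libraries and 6 and 8 in DMSO libraries), 1 of the 5 tested had a positive log2 fold change and the median was -0.03. elo-8 had the smallest p, at a log2 fold change of 1.76 ± 0.82 (edgeR adjusted p = 0.701), but on few reads, 18, 12 and 31 in BPTMC replicates 1, 2 and 3 against 9 and 4 in DMSO worms. elo-6, which makes branched-chain fatty acids with elo-5 and lies 9511 bases from it, stood at 214, 330 and 87.9 CPM in BPTMC replicates 1, 2 and 3, against 270 and 215 CPM in DMSO worms. Its libraries stood in the same order within each group as those of elo-5, with a log2 fold change of -0.20 ± 0.52 (edgeR adjusted p = 0.886) that was 0.23 without BPTMC replicate 3.

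Of 10 genes that supply the pathway with substrate, reducing power or the remaining steps of elongation, 0 were called by edgeR, DESeq2 or limma-voom, 5 had positive and 5 negative log2 fold changes and the median was 0.02. cytb-5.1, a cytochrome b5, the class of protein that hands electrons to desaturases, was the 1 gene with an unadjusted p under 0.05. It stood at 158, 79.2 and 62.2 CPM in BPTMC replicates 1, 2 and 3, against 53.1 and 33.3 CPM in DMSO worms. All BPTMC libraries were above both DMSO libraries, as for 13.4% of all genes. The log2 fold change of cytb-5.1 was 1.21 ± 0.50 (edgeR unadjusted p = 0.0415, adjusted p = 0.647). Without BPTMC replicate 1 it was 0.76 (edgeR unadjusted p = 0.0928), and without BPTMC replicate 3 it was 1.58 (edgeR unadjusted p = 0.0211). Without DMSO replicate 2 it was 0.97. At an edgeR unadjusted p under 0.05, 7% of all genes were higher. cytb-5.1 overlaps tbc-19 on the opposite strand and may share reads with it. The fatty acid synthase fasn-1 and the acetyl-CoA carboxylase pod-2, which provide palmitic acid, were at -0.18 ± 0.44 and 0.48 ± 0.36.

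Of 10 regulators of desaturase genes, 0 were called by any of the 3 tools, 5 were positive and 5 negative, and the median was -0.05. nhr-80, a nuclear receptor required for normal fat-6 expression, stood at 11.0, 5.56 and 14.4 CPM in BPTMC replicates 1, 2 and 3, against 3.67 and 4.79 CPM in DMSO worms. sbp-1, the worm counterpart of the lipid regulator SREBP, stood at 17.6, 10.1 and 22.7 CPM, against 6.13 and 8.74 CPM in DMSO worms. For both, all BPTMC libraries exceeded both DMSO libraries, as for 13.4% of all genes. BPTMC replicate 3, where 6 of the 10 enzyme genes were lowest, was the highest for both. Their log2 fold changes were 1.29 ± 0.53 and 1.17 ± 0.48 (edgeR unadjusted p = 0.0389 and 0.0405, adjusted p = 0.643 and 0.644); sbp-1 overlaps idpc-1 on the opposite strand. The nuclear receptor nhr-49 and the Mediator subunit mdt-15, both known to be needed for fat-7 expression, were at -0.18 ± 0.45 and 0.01 ± 0.40.

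**Figure D5:**
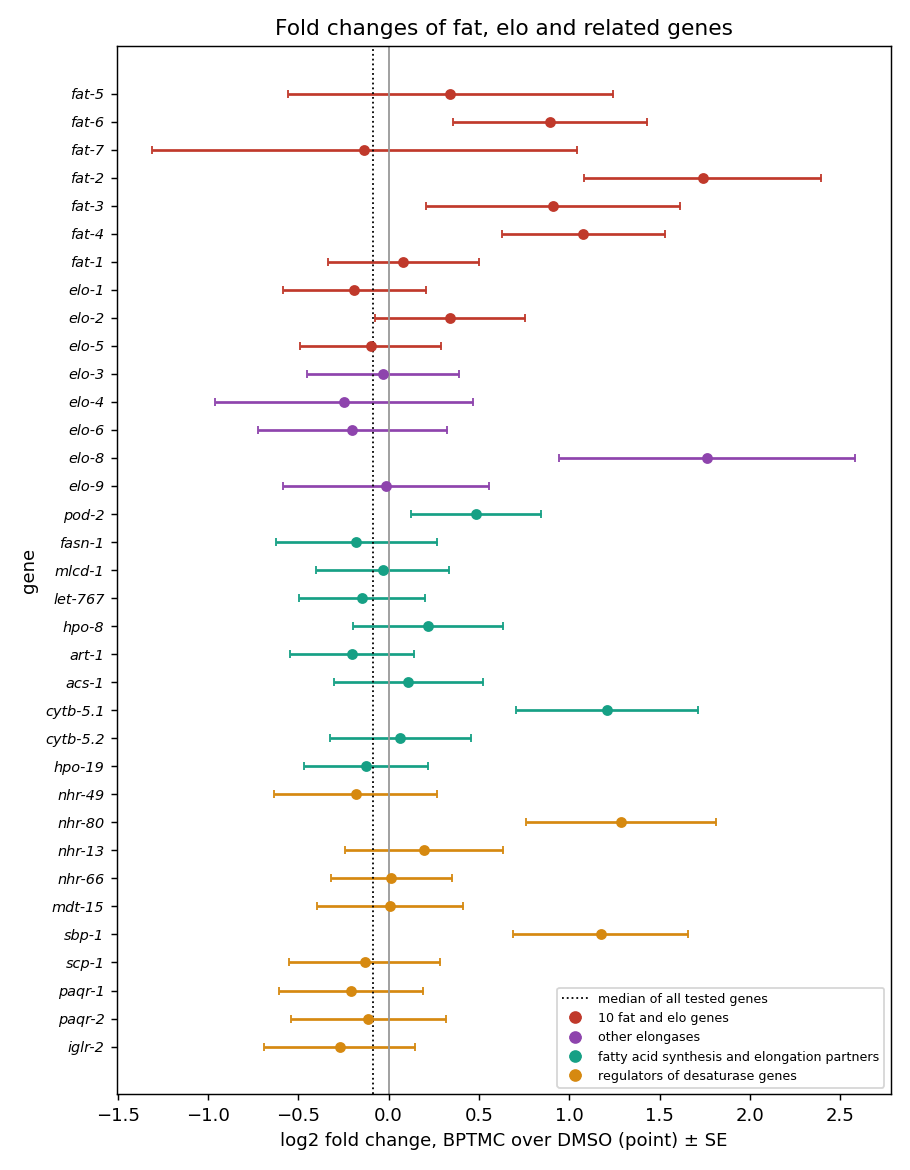
Log2 fold change (BPTMC over DMSO, points) with its SE (bars) for the 10 desaturase and elongase genes, other elongases, synthesis and elongation partners, and regulators of desaturase genes. The dotted line is the median of all tested genes, -0.09; none of the points passed at an adjusted p under 0.05.

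Likeness of pattern was measured as the root mean square difference, over the 5 libraries, of log2 CPM deviations from each gene's mean, among 6989 other genes with a mean of at least 10 CPM. It is a description: the points compared are the same 5 libraries for every gene, and these differ in depth and composition. For fat-7 the nearest genes were F58G6.9 (0.33) and dhs-25, a short-chain dehydrogenase (0.50). In F58G6.9, too, BPTMC replicate 2 was above both DMSO libraries and the others were below both. dhs-25 stood at 10.8, 74.8 and 4.93 CPM, against 71.2 and 60.4 CPM in DMSO worms. Both thus show the 2 low and 1 high BPTMC libraries seen in fat-7.

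For fat-5 the nearest genes were F53F1.4 (0.39) and T15B7.15 (0.40), and for fat-6 F37H8.5 (0.16) and T05E11.9 (0.20). The nearest to fat-2 were C42D4.1 and cal-1 (0.14 each), with C42D4.1 at 986, 163 and 289 CPM in BPTMC replicates 1, 2 and 3, against 148 and 103 CPM in DMSO worms. fat-3 was nearest to nhr-101 (0.13) and tpra-1 (0.15), fat-4 to C42D8.9 (0.06) and F19C7.1 (0.11), and fat-1 to spds-1 and gob-1 (0.08 each). C42D8.9 overlaps the yolk gene vit-2 on the opposite strand. It had 11114 to 26611 reads in BPTMC libraries and 8659 and 8847 in DMSO libraries, where vit-2 had 77133 to 201746 and 68676 and 73970. How far C42D8.9 and vit-2 share reads cannot be told. T15B7.15 overlaps the collagen gene col-143, and nhr-101, cal-1, F25B4.7 and F54F2.7 also overlap coding genes on the opposite strand. elo-1 was nearest to gos-28 (0.02) and K03H1.11 (0.03), elo-2 to mboa-3 (0.07) and pmp-2 (0.11), and elo-5 to F25B4.7 (0.07) and F54F2.7 (0.08). Within the family, fat-5 and fat-7 were each other's nearest member but at a distance of 0.95, with 25 other genes closer to fat-7 than fat-5 was and 598 closer to fat-5 than fat-7 was. fat-2 and fat-4 were each other's nearest at 0.41, elo-1 and elo-5 at 0.12, and fat-1 and elo-2 at 0.17. The widest distance within the family was that of fat-7 from fat-2, at 2.59.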

How the data were processed

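The 5 deposited tables hold raw counts per gene symbol, 1 table per library, made by the authors from QuantSeq 3' tag libraries (500 ng of total RNA) per the labels' protocols. The submitters' processing notes name Bowtie2, bedtools and the build WBcel235; no source used here gives versions, annotation or strand setting. The counts were whole numbers, summed to a different total per library and were used without change. Coordinates came from the Ensembl 115 annotation of WBcel235, matched by symbol. No gene within 10 rows of a member had counts within 5% of it in every library, and a chi-square of each pair of libraries exceeded its degrees of freedom by at least 82.5 times. Thus no 2 libraries are copies.

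The 3 BPTMC libraries were tested against the 2 DMSO libraries in R 4.3.3 with edgeR 4.0.16 (glmQLFit and glmQLFTest, no legacy mode), after filterByExpr at a minimum count of 10 and TMM scaling, and Benjamini-Hochberg adjustment over 14238 genes. Each SE is approximate: the size of the log2 fold change over the root of its F statistic. CPM used TMM, and pattern distances log2 CPM with a prior count of 2. Alternatives were DESeq2 1.42.0, limma-voom (limma 3.58.1), other scalings, filters and dispersions, the replicate number as a block, and each library left out; with 1 DMSO library left, it was assumed to vary like the others. The members and lists were chosen with earlier results of these data known. All members are named; of each other list, genes with an unadjusted p under 0.05 or else the 2 smallest p, with some further list genes (fasn-1, pod-2, nhr-49, mdt-15, bli-1, vit-2, lin-26, col-19) added after their values were seen.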

Additional observations from a re-analysis of the deposited data

How the results depend on the processing

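None of the 10 genes was called under any scaling, filter, tool or left-out library tried, and the replicate block was the exception. Replicates share a number only, and 2 numbers cannot show pairing: deviations of same-numbered libraries from their group means correlated across genes at r = 0.67 for replicate 1 and 0.33 for replicate 2. The deviations of the 2 DMSO libraries from their mean are equal and opposite, so these 2 correlations are not independent. No DMSO library has the number 3, so in the block fit BPTMC replicate 3 did not inform the fold changes. These rested on replicates 1 and 2 of each group. With the number as a block, 1 residual degree of freedom remained, and edgeR called 1147 genes higher (8.06%) and 599 lower (4.21%), among them 4 of the 10 (fat-2 at 1.58, fat-4 at 1.11, fat-6 at 1.25 and fat-3 at 0.96 on the log2 scale), with 4 at an unadjusted p under 0.05, beside 15.4% of all genes higher and 10.9% lower. It also called cytb-5.1 (1.41), elt-7, rol-6, msp-10, msp-19, vit-2, glh-1, pgl-1, vit-1 and vit-3; elo-1, elo-5 and elo-6 turned positive there (0.055, 0.13 and 0.14) and mdt-15 negative (-0.18).

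The number of all genes called higher was 15, and it was 2 with total-count scaling, 65 (and 2 lower) without a filter, 3 with at least 5 CPM in 2 or more libraries, 238 (and 3 lower) by DESeq2, 1 by limma-voom, 3 with legacy dispersions and 0 to 43 with a library left out. Members at an unadjusted p under 0.05 numbered 2, but 0 by limma-voom (3.95% of all genes higher and 0.471% lower), 1 with legacy dispersions (6.21% and 0.323%) and 0 to 4 with a library left out; the 4, 2 of them higher and 2 lower, came without BPTMC replicate 2, where 10.7% of all genes were higher and 0.889% lower. Members wholly above DMSO numbered 2, and 2 to 5 with a library left out (the 5 without BPTMC replicate 3, where 19.1% of all genes were), and those wholly below 0, and 0 to 2 (the 2 without BPTMC replicate 2, where 16.3% were); with fewer libraries 17.8% to 28.2% of all genes lay wholly above and 9.87% to 30.2% wholly below. These counts, and the alternatives for marker, yolk, synthesis and regulator genes other than cytb-5.1, nhr-80 and sbp-1, were added after the data were seen. fat-5 was -0.45 and fat-7 -1.58 by limma-voom, elo-5 was 0.026 with the CPM filter, and mdt-15 was -0.050 with RLE scaling and by DESeq2 and -0.015 without a filter. With a library left out, log2 fold changes spanned -1.45 to 0.86 for fat-5, -2.77 to 0.42 for fat-7, -0.078 to 1.58 for fat-3, -0.20 to 0.44 for fat-1, -0.29 to 0.14 for elo-1, -0.23 to 0.21 for elo-5, -0.59 to 0.23 for elo-6, -0.45 to 0.15 for fasn-1, -0.57 to 0.34 for nhr-49, -0.30 to 0.39 for mdt-15 and -0.63 to 0.016 for col-19. The cause of these shifts was not tested. fat-2, fat-4, fat-6 and elo-2 were positive under every alternative. The lowest counts among the members were those of fat-7 (62 reads in BPTMC replicate 3) and fat-5 (164 reads in BPTMC replicate 1). The part of depth in these values was not tested.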

Other observations

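T26H5.9 and acdh-2, chosen after their values were seen, were the genes next to fat-7 in the order of spread among the BPTMC libraries (5.12 and 4.90 log2 units, with fat-7 at 5.03 between them). acdh-2, named as an acyl-CoA dehydrogenase, an enzyme class of fatty acid breakdown, had 1.71, 29.5 and 0.508 CPM in BPTMC replicates 1, 2 and 3, against 36.8 and 21.9 CPM in DMSO worms. Its BPTMC libraries stood in the order of those of fat-7, with replicate 2 highest and replicate 3 lowest, but all 3 were below DMSO replicate 1. T26H5.9 had 1049, 29.6 and 348 CPM in BPTMC replicates 1, 2 and 3, against 3.63 and 0 CPM in DMSO worms, so replicate 2 was its lowest BPTMC library.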
